A study of Canis lupus familiaris with 13 samples.

Results

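The genes described here are the solute carrier (SLC) genes on an Affymetrix canine expression array. They were chosen by name: every probe set, the group of short probes that reads 1 transcript, whose only gene symbol in the array annotation starts with SLC and a number. This gave 188 probe sets of 123 genes, among 6540 genes with a single symbol on the array, and each gene was represented by its probe set of highest mean signal over the 13 arrays. After a filter on low signal, 85 of the 123 genes were tested, among 5240 genes tested in all. The 38 genes left out had mean signals of 13.1 to 140.0, against 125 to 22076 for the 85 tested, so that no statement below covers all SLC genes of the heart. SLC2A4, the insulin-responsive glucose carrier of muscle, was not analysed here.

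Solute carriers are membrane proteins that move sugars, amino acids, ions, metals, nucleosides and metabolites without splitting ATP themselves. They do so down a gradient, together with an ion such as sodium, or in exchange for another solute. In heart muscle the best known are the glucose carriers that feed glycolysis, the sodium/calcium exchanger that removes calcium after each beat, the sodium/proton and bicarbonate carriers that set cell pH, and the carriers of the inner mitochondrial membrane that export ATP and shuttle reducing equivalents. The genes fall into numbered families by sequence, which only in part follow the substrate carried. The symbols of 3 genes fit the rule although their products carry nothing: SLC9A3R1 and SLC9A3R2 are scaffold proteins that bind exchangers and receptors, and SLC2A4RG regulates transcription of the glucose carrier gene SLC2A4.

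The RNA came from heart tissue of 13 separately named dog samples, 1 array each. Dilated cardiomyopathy was the diagnosis in the Dobermans, of which there were 3 (named K, L and R), and in the 4 Boxers (numbered 1 to 4); a further 3 mongrels were under pacing (LV01, LV02 and LV04), and the controls were 3 mongrels (P1, P4 and P9). Dilated cardiomyopathy is a disease of enlarged, weakly contracting ventricles, and pacing drives the heart through an electrode. No healthy Doberman or Boxer was measured, so breed and disease cannot be told apart in the comparisons with control mongrels, and the labels give no pacing rate or length, chamber, age or sex. The p-values measure the spread between these samples, and the small number of arrays limits their precision.

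The 3 Doberman arrays differed from each other more than the arrays of any other group. Their correlation with their own group was 0.789 to 0.844, against 0.947 to 0.969 on the other arrays. The signal ratio of 3' to 5' GAPDH probes is higher in degraded RNA: Doberman K had 1.08, L had 2.10 and R had 3.62, against 0.967 to 1.09 on the other 10 arrays. By actin probes, the log2 of this ratio was -1.90 for K, -1.92 for L and -0.08 for R. On the other 10 arrays it was -3.17 to -1.56, so by actin R alone lay outside their range. Median signals were 160.0 on array K, 234.0 on array L and 219 on array R, 132 to 145 in the Boxers, 207 to 219 in the paced mongrels and 142 to 146 in the controls, although every array had been scaled by the authors to the same trimmed mean. Doberman results are therefore given with K alone as well, and the part of RNA quality in them was not tested.

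In Dobermans, 20 of the 85 tested SLC genes changed against control mongrels at an adjusted p under 0.05 (limma, Benjamini-Hochberg over 14302 probe sets), 23.5%, where the background over all 5240 tested genes was 26.0%. Of these 15 rose (17.6%), where 11.9% of all tested genes rose, and 5 fell (5.88%), where 14.1% fell. The median log2 change of the 85 genes was 0.34, against 0.04 for all tested genes, and 44 of the 85 had an unadjusted p under 0.05, where 42.1% of all tested genes did. The total was near the background, and the split by direction changed with the scaling, as given below. The count rested on single arrays: it was 2 without Doberman L, 6 without R and 53 without K, and 5, 8 and 10 without controls P1, P4 and P9, and a fit of these 2 groups alone called 0. The gene with the largest passing rise was SLC2A8, an intracellular hexose carrier, and the largest fall was that of SLC38A1, a glutamine and neutral amino acid carrier.

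In Boxers 0 of the 85 genes passed against control mongrels in limma, where the background was 0.0573% (0.0191% higher and 0.0382% lower). At an unadjusted p under 0.05 there were 8 of the 85, where 8.51% of all tested genes had such a p, so this count was near the background too. The median log2 change was 0.05. In paced mongrels 10 of the 85 passed against control mongrels, 11.8%, beside a background of 9.24%. There 8 rose (9.41%), where 5.19% of all tested genes rose, and 2 fell (2.35%), where 4.05% fell, and the median was 0.07 for the SLC genes and -0.04 for all tested genes. The paced count was 5 without control P1 and 5 without any 1 of the paced arrays.

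Dobermans were also set directly against Boxers, both with dilated cardiomyopathy. Without healthy dogs of either breed, breed and the form the disease takes in each breed cannot be told apart here either. The part of the RNA quality of Dobermans L and R in this comparison was not tested. In the direct comparison 28 of the 85 genes passed, 32.9%, beside a background of 34.2%. Of these 19 were higher in Dobermans (22.4%), where 16.8% of all tested genes were, and 9 were lower (10.6%), where 17.4% were. The median was 0.40 for the SLC genes and 0.04 for all tested genes. Here the count was 10 without Doberman L, 16 without R and 58 without K. In all, 43 of the 85 genes passed in at least 1 of the 4 comparisons and 42 in none; the comparisons share control or Doberman arrays and are not independent of each other.

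**Figure D1:**
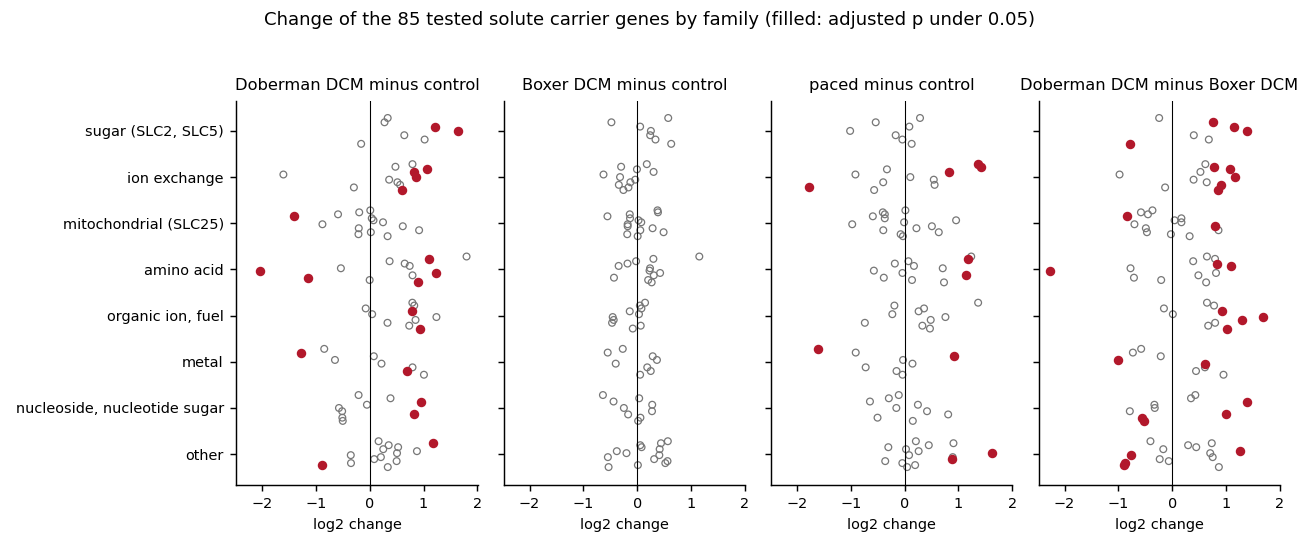
The log2 change of each of the 85 tested SLC genes (x axis) is drawn by family (y axis) for Dobermans, Boxers and paced mongrels minus control mongrels, and for Dobermans minus Boxers. Filled points passed at an adjusted p under 0.05: 20, 0, 10 and 28 genes in the 4 panels, read left to right.

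The direction of these counts depended on how the arrays were scaled. Under the authors' scaling the median log2 change of all probe sets was 0.19 in Dobermans and 0.06 in paced mongrels against controls, and 0.20 in Dobermans against Boxers. Median centring of the arrays moved these to -0.25, -0.45 and -0.31, and quantile normalization to 0.02, -0.05 and 0.00. The split of higher to lower SLC genes in Dobermans against controls was 15 to 5 as deposited, 5 to 5 after quantile normalization and 1 to 13 after median centring. In paced mongrels it was 8 to 2, 5 to 9 and 3 to 23, and in Dobermans against Boxers 19 to 9, 12 to 9 and 3 to 27. None of the genes that passed as deposited changed the sign of its log2 change under either scaling, and 6, 5 and 10 of them passed under both.

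Changes also went with signal level, in SLC genes and in all genes. In Dobermans against controls, the 21 SLC genes with a mean signal under 250 had a median log2 change of 0.74, beside 0.40 for all 1045 tested genes in that range. The 18 SLC genes with a mean signal over 1000 had a median of -0.14, beside -0.18 for all 1888 genes there. In paced mongrels the same 2 ranges gave 0.42 beside 0.28, and -0.04 beside -0.18. The 8 SLC genes that rose in paced mongrels all had mean signals of 137 to 461.

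**Figure D2:**
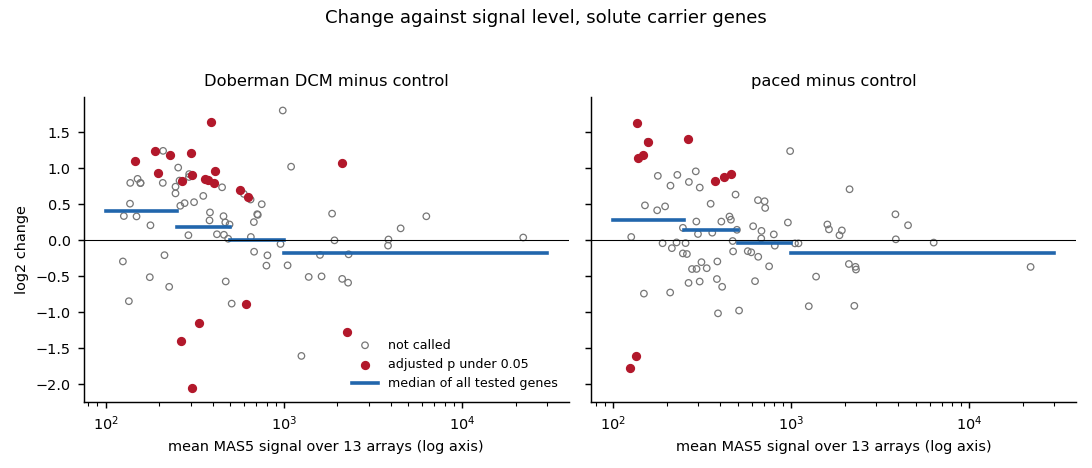
Each point is 1 of the 85 tested SLC genes, with its mean signal over 13 arrays on a log axis (x) and its log2 change (y) in Dobermans (left) and paced mongrels (right) minus control mongrels. Blue bars are medians over all tested genes in 4 ranges of signal, which fall with signal in Dobermans to -0.18 in the highest range, against 0.40 in the lowest.

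Among the sugar carriers, grouped by family number (SLC2 and SLC5), 7 of 11 genes were tested. This group includes SLC2A4RG, which carries nothing, and SLC5A6, a vitamin carrier. In Dobermans 2 rose against controls and 0 fell, and in Boxers and paced mongrels 0 passed. In Dobermans against Boxers 3 were higher and 1 was lower. Over all tested genes, 11.9% rose and 14.1% fell in Dobermans, and 5.19% rose and 4.05% fell in paced mongrels. In Boxers 0.0573% passed, and against Boxers 16.8% were higher and 17.4% lower in Dobermans. The family counts here and below are small and are to be read beside these shares. The family median in Dobermans against controls was 0.64 as deposited, 0.64 after quantile normalization and 0.20 after median centring. The deposited median was the value of SLC2A4RG itself. For the 4 tested SLC2 carriers alone it was 1.12. SLC2A8 (GLUT8) and SLC2A9 (GLUT9, a carrier of urate) were the genes that rose, and SLC2A1 (GLUT1), the carrier of basal glucose uptake, was lower in Dobermans than in Boxers.

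SLC2A8 signals were 458, 1229 and 953 in Dobermans K, L and R, 337, 450.1, 205 and 258 in Boxers 1 to 4, 101, 106 and 142 in paced mongrels LV01, LV02 and LV04, and 407, 142 and 262 in control mongrels P1, P4 and P9. Every Doberman lay above every Boxer, every paced mongrel and every control, and the paced mongrels were the lowest group, with LV04 at the level of control P4. The gene rose in Dobermans against controls by a factor of 3.13 (log2 change 1.65 ± 0.41, SE, adjusted p = 0.0158), and by 2.63 against Boxers (log2 change 1.39 ± 0.38, SE, adjusted p = 0.016). With K as the only Doberman the log2 changes were 0.84 and 0.58, neither passing. SLC2A8 was the 1 rise in Dobermans that passed under all 3 scalings. Its log2 change in paced mongrels against controls was -1.02 ± 0.41 and did not pass (adjusted p = 0.117).

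SLC2A9 had signals of 284, 832 and 547 in the Dobermans, 252, 149, 279.8 and 215 in the Boxers, 286, 185 and 212 in the paced mongrels and 269, 254 and 134 in the control mongrels. All 3 Dobermans lay above the other 10 arrays, apart from LV01, which was just above K, and L was the highest. The rise was 1.21 ± 0.37 against controls (adjusted p = 0.0334) and 1.16 ± 0.35 against Boxers (adjusted p = 0.0233), with 0.41 and 0.35 for K alone.

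SLC2A1 showed another pattern, with signals of 554, 504 and 473 in the Dobermans, 1110.4, 758, 1039.5 and 726 in the Boxers, 873, 474 and 591 in the paced mongrels and 653, 408 and 696 in the control mongrels. The Dobermans varied little, all lay below the lowest Boxer, and all Boxers lay above the highest control. Dobermans were lower than Boxers (log2 change -0.79 ± 0.25, SE, adjusted p = 0.0272), and for K alone the value was -0.67. Neither breed passed against controls: the log2 change was -0.16 ± 0.27 in Dobermans and 0.63 ± 0.25 in Boxers, with adjusted p of 0.661 and 0.589, and in paced mongrels it was 0.13 ± 0.27.

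SLC2A3 (GLUT3), a high-affinity glucose carrier best known from neurons, passed in none of the 4 comparisons. Its signals were 2535, 1303 and 1249 in the Dobermans, 1159, 921, 759 and 1209 in the Boxers, 1446, 668 and 450.1 in the paced mongrels and 632, 528 and 1431 in the control mongrels, with control P9 among the Dobermans and LV01 above the other paced mongrels. The log2 change in Dobermans against controls was 1.02 ± 0.43 (adjusted p = 0.0908). Of the SLC5 genes, SLC5A10, a sodium-coupled sugar carrier known from kidney, was higher in Dobermans than in Boxers, with signals of 449.7, 514 and 618 in Dobermans against 347, 303, 287 and 281 in Boxers (log2 change 0.75 ± 0.19, SE, adjusted p = 0.0128, K alone 0.54). SLC5A6, a sodium-dependent vitamin carrier, was among the genes of smallest p in Boxers against controls, with signals of 486, 612, 543 and 527 in Boxers against 380.1, 346 and 346 in controls. All 4 Boxers lay above the controls, but the change did not pass (log2 change 0.58 ± 0.21, SE, adjusted p = 0.545).

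**Figure D3:**
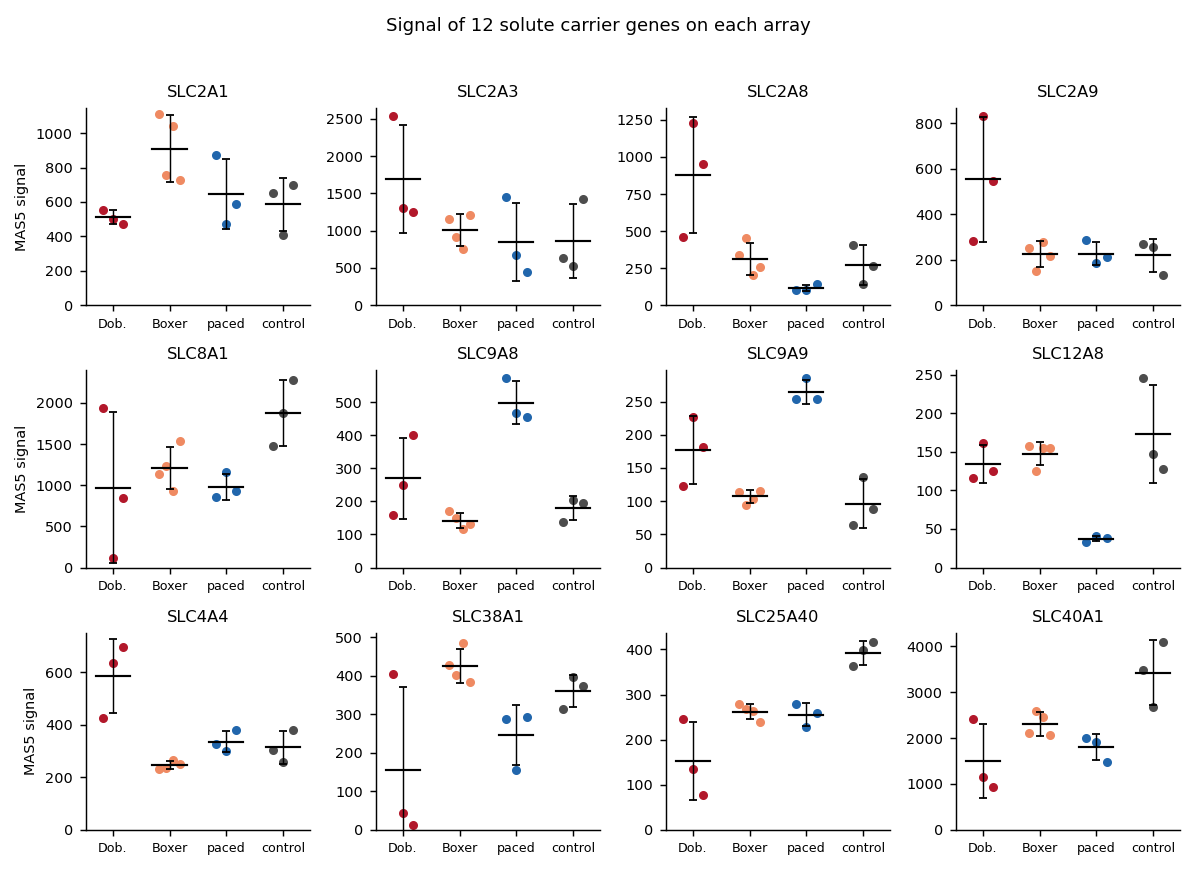
Each panel gives the MAS5 signal (linear axis from 0) of 1 SLC gene on every array, with Dobermans (Dob.), Boxers, paced mongrels and control mongrels read left to right, and a line and bar for the mean and SD (the axis cuts bars at 0). SLC9A8 and SLC9A9 are high on all 3 paced arrays and SLC12A8 is low there, at 33.5 to 40.2, while SLC40A1 and SLC25A40 are highest on the 3 control arrays.

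The ion exchangers and cotransporters (SLC4, SLC8, SLC9, SLC12, SLC24 and SLC26) had 11 of 16 genes tested. In Dobermans 4 rose against controls and 0 fell, and in Boxers 0 passed. In paced mongrels 3 rose and 1 fell, and in Dobermans against Boxers 5 were higher and 0 lower. These counts and the medians below include the scaffolds SLC9A3R1 and SLC9A3R2, which carry nothing. Both were among the 4 Doberman rises, where the carriers that rose were SLC4A4 and SLC12A3. SLC9A3R1 was among the 3 paced rises, and SLC9A3R2 among the 5 genes higher than in Boxers. The Doberman median was 0.56 as deposited, 0.35 after quantile normalization and 0.12 after median centring, whereas that of paced mongrels was 0.10 as deposited and turned to -0.18 and -0.40. Of the SLC8 and SLC9 carriers proper, 3 of 5 were tested, and 2 of them rose in paced mongrels.

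SLC9A8 encodes a sodium/proton exchanger of the Golgi and of some apical membranes. Its signals were 159, 249.5 and 401 in Dobermans K, L and R, 171, 150.3, 116 and 131 in Boxers 1 to 4, 574, 468 and 456 in paced mongrels LV01, LV02 and LV04, and 138, 205 and 195 in control mongrels P1, P4 and P9. The 3 paced arrays lay above all 10 others, Doberman R being the nearest. SLC9A8 rose by a factor of 2.66 in paced mongrels (log2 change 1.41 ± 0.30, SE, adjusted p = 0.0095), and it was also higher in Dobermans than in Boxers (log2 change 0.78 ± 0.28, SE, adjusted p = 0.0437), where K alone gave 0.16 and Doberman K lay among the Boxers. Against controls it passed in neither breed.

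SLC9A9, an exchanger of endosomes, had signals of 123, 226 and 182 in the Dobermans, 114, 94.5, 103 and 116 in the Boxers, 255, 286 and 254 in the paced mongrels and 63.9, 137 and 88.5 in the control mongrels. The paced arrays again lay above all others, and Dobermans L and R came next. The rise in paced mongrels was 2.58 in fold (log2 change 1.37 ± 0.29, SE, adjusted p = 0.00996), and the change in Dobermans, 0.79 ± 0.29, did not pass (adjusted p = 0.0578). SLC9A8 and SLC9A9 rose in paced mongrels under all 3 scalings and in every alternative run that tested them.

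SLC8A1 encodes the cardiac sodium/calcium exchanger NCX1. Its signals were 1941, 121 and 843 in Dobermans K, L and R, 1139, 1239, 927 and 1539 in Boxers 1 to 4, 852, 1159 and 929 in paced mongrels LV01, LV02 and LV04, and 1472, 1879 and 2284 in control mongrels P1, P4 and P9. Paced mongrels lay below all controls, 3 of the 4 Boxers did so too, and the Dobermans ran over a wider range than any other group, from L, the lowest of all 13 arrays, to K, which lay among the controls. The log2 changes against controls were -1.61 ± 0.65 in Dobermans, -0.63 ± 0.61 in Boxers and -0.92 ± 0.65 in paced mongrels, and none passed, with adjusted p of 0.078, 0.885 and 0.376. The SE of this gene, near 0.65, was among the largest of the SLC genes.

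SLC12A8, a member of the cation-chloride cotransporter family, was the largest fall in paced mongrels. Signals were 116, 162 and 125 in the Dobermans, 157, 125, 155 and 154 in the Boxers, 33.5, 40.2 and 38.7 in the paced mongrels and 245, 147 and 128 in the control mongrels, and the 3 paced arrays lay below all 10 others, under the level of the filter. The log2 change was -1.77 ± 0.29 (adjusted p = 0.00291), and because the paced signals were that low its size depends on the added constant of 16. It passed in every alternative run that tested it. No change of SLC12A8 passed in either breed.

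SLC4A4, the electrogenic sodium bicarbonate cotransporter that brings base into cells, rose in Dobermans. Its signals were 426, 635 and 695 in the Dobermans, 233, 234, 267 and 249.7 in the Boxers, 328, 302 and 378 in the paced mongrels and 303, 258 and 381 in the control mongrels, with all 3 Dobermans above every other array. The log2 change was 0.85 ± 0.22 against controls (adjusted p = 0.0191) and 1.17 ± 0.21 against Boxers (adjusted p = 0.00391), with 0.44 and 0.76 for K alone. A different probe set of SLC4A4 fell in paced mongrels (log2 change -1.78 ± 0.30, SE, adjusted p = 0.00333), where the one used here had 0.10 ± 0.22, so the paced result for this gene rests on the probe set chosen. SLC12A3, the thiazide-sensitive sodium chloride cotransporter known from kidney, rose in Dobermans against controls, with signals of 754, 1052 and 1098 in Dobermans against 645, 666 and 577 in controls and no overlap (log2 change 0.59 ± 0.19, SE, adjusted p = 0.0388, K alone 0.26). Against Boxers, SLC24A2, a potassium-dependent sodium/calcium exchanger known from retina and brain, was higher too, at 554, 1111 and 914 in Dobermans and 522, 459, 364 and 404 in Boxers (log2 change 0.91 ± 0.22, SE, adjusted p = 0.011, K alone 0.34).

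Both exchanger scaffolds moved as well. SLC9A3R1 had signals of 451, 628 and 348 in the Dobermans, 385, 267, 338 and 287 in the Boxers, 474, 389 and 530 in the paced mongrels and 220.2, 311 and 237 in the control mongrels, and all Doberman and all paced arrays lay above the controls. It rose in Dobermans (log2 change 0.83 ± 0.25, SE, adjusted p = 0.0299, K alone 0.79) and in paced mongrels (log2 change 0.82 ± 0.25, SE, adjusted p = 0.0432). SLC9A3R2 had 1721, 5517 and 4528 in the Dobermans, 1492, 1809.8, 1583 and 1777 in the Boxers, 1385, 1338 and 1247 in the paced mongrels and 1719.8, 1775 and 1516 in the control mongrels, with Dobermans L and R far above the rest and K among the Boxers and controls. Its rise in Dobermans of 1.07 ± 0.32 against controls and 1.07 ± 0.30 against Boxers (adjusted p = 0.0296 and 0.0166) was 0.05 and 0.05 with K alone.

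The mitochondrial carriers (SLC25) had 14 of 17 genes tested. In Dobermans 0 rose and 1 fell, where 11.9% of all tested genes rose and 14.1% fell. In Boxers and in paced mongrels 0 passed, beside 0.0573% and 9.24% of all tested genes. Against Boxers 1 was higher and 1 lower in Dobermans, beside 16.8% and 17.4%. With 14 genes these counts are small. The medians were 0.01 in Dobermans, 0.02 in Boxers and -0.05 in paced mongrels. Scaling moved the Doberman median to -0.12 by quantile normalization and -0.42 by median centring, where 4 of the 14 genes fell, and the paced median to 0.01 and -0.56, where 4 also fell.

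The 3 ADP/ATP carriers, which exchange the ATP made in mitochondria for ADP from the cytosol, passed in no comparison by the probe set used. SLC25A4, the form of heart and skeletal muscle, had signals of 21477, 15129.9 and 41571 in the Dobermans, 19402, 20761, 21749.5 and 22842 in the Boxers, 17252, 18283 and 18315 in the paced mongrels and 24177, 26569.7 and 19464 in the control mongrels. The paced arrays were all below the controls, and Dobermans L and R were the lowest and the highest of all 13. The log2 change was 0.04 ± 0.28 in Dobermans, -0.13 ± 0.26 in Boxers and -0.37 ± 0.28 in paced mongrels, with adjusted p of 0.928, 0.966 and 0.408. SLC25A5 had 2629, 1097 and 2627 in the Dobermans, 2843, 2953, 3088 and 2916 in the Boxers, 1796, 1661 and 1634 in the paced mongrels and 2483, 1935 and 2382 in the control mongrels, so that all Boxers lay above and all paced mongrels below the controls, and no change passed (0.39 ± 0.25 in Boxers and -0.41 ± 0.27 in paced mongrels). A second probe set of SLC25A5 fell in Dobermans against controls by 1.15 on the log2 scale (SE 0.38, adjusted p = 0.0413). SLC25A6 had 3289, 3745 and 3569 in the Dobermans, 4351, 4173, 4100.2 and 5789 in the Boxers, 3452, 4001 and 3199.7 in the paced mongrels and 3415, 4171 and 3024 in the control mongrels. Its Doberman arrays lay below all Boxers, with a log2 change of -0.37 ± 0.17 (adjusted p = 0.106), which did not pass, while 2 further probe sets of the gene passed (-0.54, adjusted p = 0.0278, and -0.63, adjusted p = 0.0241).

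SLC25A40, a mitochondrial carrier shown in human and mouse cells to import glutathione, was the 1 SLC25 gene that fell in Dobermans. Signals were 247, 134 and 77.7 in Dobermans K, L and R, 279, 268, 263 and 239 in Boxers 1 to 4, 278, 229 and 259 in paced mongrels LV01, LV02 and LV04, and 363, 399 and 416 in control mongrels P1, P4 and P9. All 10 arrays of the 3 diseased or paced groups lay below the lowest control, and Dobermans L and R were the lowest. Its log2 change was -1.40 ± 0.30 in Dobermans (adjusted p = 0.0101, K alone -0.64). In Boxers it was -0.55 ± 0.28 and in paced mongrels -0.59 ± 0.30, neither passing, with adjusted p of 0.707 and 0.206. Dobermans were also lower than Boxers (log2 change -0.85 ± 0.28, SE, adjusted p = 0.0319, K alone -0.08), though K lay within the range of the Boxers.

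The carriers of the malate-aspartate shuttle, which passes reducing equivalents into mitochondria, did not pass. SLC25A11, the oxoglutarate/malate carrier, had signals of 6185, 9279 and 7309 in the Dobermans, 6093, 5277, 6540.2 and 6069 in the Boxers, 5723, 5796 and 5911 in the paced mongrels and 5624, 5935 and 6295 in the control mongrels, with a log2 change of 0.33 ± 0.17 in Dobermans (adjusted p = 0.15). SLC25A12, the aspartate/glutamate carrier, had 885, 645 and 763 in the Dobermans, 821, 703, 788 and 776 in the Boxers, 796, 848 and 857 in the paced mongrels and 890.3, 893 and 856 in the control mongrels, and its log2 changes against controls lay between -0.21 ± 0.16 in Dobermans and -0.08 ± 0.16 in paced mongrels. For SLC25A11 each of the other groups overlapped the controls, and for SLC25A12 the Dobermans and the paced mongrels did, while every Boxer was below the controls. The related SLC25A13 was not tested because of low signal. SLC25A33, a pyrimidine nucleotide carrier, had 1531, 1036 and 1284 in the Dobermans, 1513, 1552, 1715 and 2528 in the Boxers, 1759, 1597 and 1763 in the paced mongrels and 1701, 1087 and 1693 in the control mongrels and passed nowhere. SLC25A35 was the mitochondrial gene that was higher in Dobermans than in Boxers, at 293, 522 and 602 in Dobermans against 271, 276, 208 and 269 in Boxers (log2 change 0.79 ± 0.26, SE, adjusted p = 0.031, K alone 0.19).

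**Figure D4:**
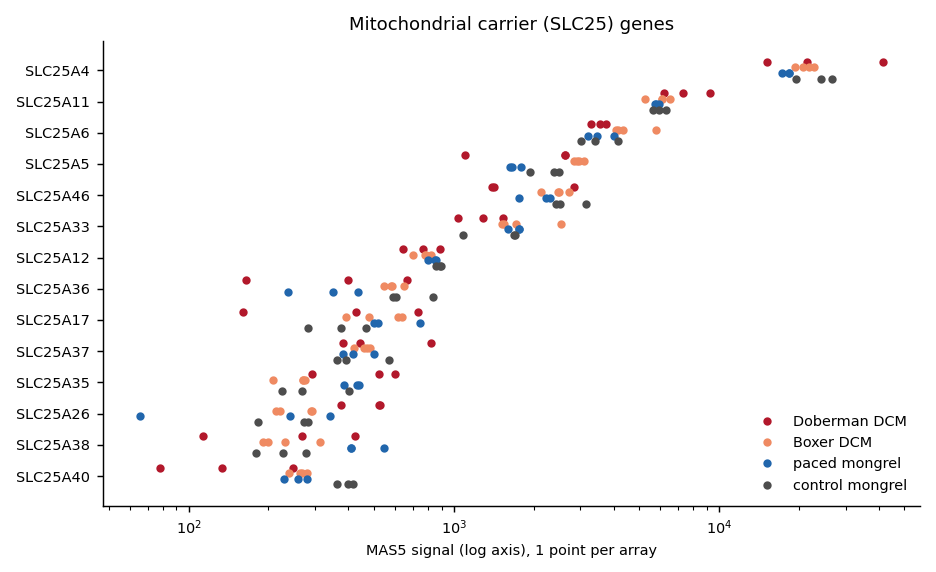
The MAS5 signal of the 14 tested SLC25 genes (y axis, sorted by mean) is given on a log axis (x), 1 point per array, with Dobermans, Boxers, paced and control mongrels in rows read downward. Control points of SLC25A40, at the bottom, lie above all others (363 to 416), and Doberman points spread more widely than those of other groups for SLC25A4, SLC25A5 and SLC25A36; signals of different genes come from different probes and cannot be ranked as amounts.

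Amino acid carriers (SLC1, SLC3, SLC6, SLC7, SLC15, SLC36, SLC38 and SLC43) had 12 of 21 genes tested. In Dobermans 3 rose and 2 fell, in Boxers 0 passed, in paced mongrels 2 rose and 0 fell, and in Dobermans against Boxers 2 were higher and 1 lower. The Doberman median was 0.70 as deposited, 0.41 after quantile normalization and 0.26 after median centring. The paced median was 0.15 and 0.26 in the first 2 settings but -0.36 after median centring.

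SLC38A1 (SNAT1), a sodium-coupled carrier of glutamine and other neutral amino acids, had signals of 405, 44.8 and 13.3 in Dobermans K, L and R, 429, 403, 485 and 385 in Boxers 1 to 4, 287, 155 and 294 in paced mongrels LV01, LV02 and LV04, and 314, 396 and 374 in control mongrels P1, P4 and P9. Dobermans L and R were the lowest of all arrays, and K lay with the Boxers and above all controls. The log2 change of -2.05 ± 0.66 against controls passed (adjusted p = 0.0393), as did -2.28 ± 0.62 against Boxers (adjusted p = 0.016). With K alone the change against controls turned to 0.16, and that against Boxers was -0.06, so the fall was seen on arrays L and R and not on K. The signals of L and R lay below the filter level, where the fitted size of the fall depends on the constant of 16 added to every signal. The paced mongrels all lay below the controls without passing (-0.57 ± 0.66, adjusted p = 0.607).

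The related SLC38A2 (SNAT2) had signals of 1783, 619 and 1796 in the Dobermans, 1853, 2583, 1792 and 2559 in the Boxers, 2835, 3561 and 2681 in the paced mongrels and 1618, 1608 and 2366 in the control mongrels, the paced arrays being the highest. Its log2 change there was 0.71 ± 0.34 and did not pass (adjusted p = 0.19), whereas a second probe set of the gene rose in paced mongrels (1.13 ± 0.33, adjusted p = 0.0408). SLC38A3 (SNAT3), a glutamine carrier of liver and brain, was higher in Dobermans than in Boxers, at 213, 376 and 581 in Dobermans against 186, 223, 100 and 159.7 in Boxers, with K among the Boxers (log2 change 1.09 ± 0.34, SE, adjusted p = 0.027, K alone 0.37).

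Genes of the SLC1 family, carriers of glutamate and of small neutral amino acids, moved in different directions. SLC1A2 (GLT-1) had signals of 248, 145 and 206 in the Dobermans, 390.3, 404, 365 and 205 in the Boxers, 329.6, 274 and 438 in the paced mongrels and 413, 435 and 512 in the control mongrels, with every Doberman below every control, and it fell in Dobermans (log2 change -1.14 ± 0.28, SE, adjusted p = 0.0159, K alone -0.82). SLC1A3 (GLAST) had 109, 166 and 205 in the Dobermans, 83.9, 91.1, 141 and 117 in the Boxers, 209, 188 and 211 in the paced mongrels and 45.7, 124 and 95.4 in the control mongrels, with every paced mongrel above every control, and it rose in paced mongrels (log2 change 1.14 ± 0.34, SE, adjusted p = 0.0415). SLC1A4, which carries alanine, serine and cysteine, had 254, 466 and 260.4 in the Dobermans, 205, 109, 148 and 256 in the Boxers, 69.2, 176 and 137 in the paced mongrels and 97, 103 and 187 in the control mongrels, with every Doberman above every control, and it rose in Dobermans (log2 change 1.24 ± 0.39, SE, adjusted p = 0.036, K alone 0.95). The 3 genes were thus each called in a single comparison with controls, and differences between those comparisons were not tested.

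SLC6A12, a carrier of betaine and of the transmitter GABA, rose in 2 groups. Its signals were 152, 175 and 269 in the Dobermans, 153, 103, 62 and 118 in the Boxers, 202, 197 and 219.5 in the paced mongrels and 104, 47.4 and 107 in the control mongrels, and every Doberman and every paced mongrel lay above the controls. The log2 change was 1.10 ± 0.35 in Dobermans and 1.18 ± 0.35 in paced mongrels, at adjusted p of 0.0375 and 0.0413, with 0.78 for Doberman K alone. SLC6A6, the taurine carrier, had 1139, 1687 and 1348 in the Dobermans, 957, 475, 1154 and 1097 in the Boxers, 489, 1277 and 1257 in the paced mongrels and 141, 239.6 and 1567 in the control mongrels. Controls P1 and P4 were far below control P9, which lay among the diseased arrays, and no comparison passed (1.80 ± 0.66 in Dobermans, adjusted p = 0.0576). SLC15A2, a carrier of small peptides, rose in Dobermans, at 291, 579 and 385 in Dobermans against 207, 179.7 and 242 in controls with no overlap (log2 change 0.90 ± 0.26, SE, adjusted p = 0.028, K alone 0.45). SLC7A1, the cationic amino acid carrier, was not tested because of low signal.

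Carriers of organic ions, bile acids and monocarboxylates (SLC10, SLC13, SLC16, SLC22 and SLC27) had 10 of 17 genes tested. In Dobermans 2 rose, in Boxers and paced mongrels 0 passed, and in Dobermans against Boxers 4 were higher and 0 lower. The median in Dobermans against Boxers was 0.79 as deposited, 0.48 after quantile normalization and 0.28 after median centring. SLC16A4, of the monocarboxylate carrier family, had signals of 141, 345 and 245 in the Dobermans, 80.8, 114, 71.7 and 75.8 in the Boxers, 149, 197 and 179 in the paced mongrels and 141, 89.3 and 136 in the control mongrels, and every Doberman lay above every Boxer. The difference was 1.29 ± 0.30 (adjusted p = 0.00918, K alone 0.65).

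SLC22A10, of the organic anion carrier family, had signals of 266, 405 and 407 in the Dobermans, 157, 182, 18.1 and 128 in the Boxers, 255, 251 and 239 in the paced mongrels and 120.4, 146 and 157 in the control mongrels. The Dobermans lay above all other arrays, and Boxer 3 lay far below the other Boxers. Dobermans were higher than Boxers (log2 change 1.70 ± 0.47, SE, adjusted p = 0.0169, K alone 1.31), and the change against controls, 1.24 ± 0.50, did not pass. SLC10A1, the bile acid carrier of liver, had 169.8, 448 and 319 in the Dobermans, 162, 137, 131 and 117 in the Boxers, 262, 175 and 193 in the paced mongrels and 157, 135 and 145 in the control mongrels and rose in Dobermans (log2 change 0.93 ± 0.31, SE, adjusted p = 0.0415, K alone 0.21), K being just above the highest control. SLC22A18 had 474, 782 and 559 in Dobermans, 397, 286, 298 and 249.8 in Boxers and 337, 379 and 296 in controls, with all Dobermans above both, and it too rose (log2 change 0.79 ± 0.23, SE, adjusted p = 0.0264, K alone 0.48). SLC22A3, the organic cation carrier OCT3 of heart and other tissues, had 3105, 3411 and 3681 in the Dobermans, 3916, 3401, 3704 and 4109 in the Boxers, 5641, 4327 and 3957 in the paced mongrels and 3831, 3799 and 3135 in the control mongrels. The paced arrays lay above the rest apart from Boxer 4, which was above LV04, and no comparison passed.

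Of the metal carriers (SLC11, SLC30, SLC31, SLC39, SLC40 and SLC41), 8 of 11 were tested. Each direction held 1 gene in Dobermans, in paced mongrels and in Dobermans against Boxers, and 0 passed in Boxers. The gene that fell in Dobermans was SLC40A1, ferroportin, the iron exporter of cells. Its signals were 2425, 1152 and 934 in Dobermans K, L and R, 2101, 2599, 2457 and 2077 in Boxers 1 to 4, 2009, 1915 and 1477 in paced mongrels LV01, LV02 and LV04, and 3474, 2685 and 4100.4 in control mongrels P1, P4 and P9. All 10 arrays of Dobermans, Boxers and paced mongrels lay below the lowest control, and L and R were the lowest. Its change was -1.28 ± 0.29 in Dobermans on the log2 scale (adjusted p = 0.0126, K alone -0.47). In Boxers it was -0.55 ± 0.27 and in paced mongrels -0.91 ± 0.29, and neither passed (adjusted p = 0.705 and 0.0574). A second probe set of SLC40A1 also fell in Dobermans (-2.46 ± 0.52, adjusted p = 0.0101), and its log2 changes in Boxers and paced mongrels were -0.47 and -1.29, not passing. In bulk heart tissue, fewer cells of a type that expresses a gene and less RNA per cell cannot be told apart, and ferroportin is best known from macrophages. The macrophage markers, 6 of 6 on the array, summed to 2003 to 5407 in Dobermans and 2931 to 8050 in Boxers. Their sums were 2118 to 2546 in paced mongrels and 2076 to 3634 in controls. In Dobermans 1 of them rose and 1 fell, where 11.9% of all tested genes rose and 14.1% fell. These were TYROBP (log2 change 1.09, K alone 1.15) and LYZ (log2 change -1.20, K alone -0.42). The part of macrophages in the fall of SLC40A1 was not tested.

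SLC39A8 (ZIP8), an importer of zinc and other divalent metals, had signals of 321, 401 and 399 in the Dobermans, 448, 459.9, 429.7 and 399.7 in the Boxers, 649, 739 and 662 in the paced mongrels and 247, 398 and 443 in the control mongrels. The paced arrays lay above all 10 others, and the gene rose in paced mongrels (log2 change 0.92 ± 0.22, SE, adjusted p = 0.016). SLC41A3, of the magnesium carrier family, fell there, with 54.4, 53.2 and 49.4 in paced mongrels against 178, 283 and 141 in controls, below the filter level on every paced array (log2 change -1.61 ± 0.45, SE, adjusted p = 0.0325). The zinc importer SLC39A10 rose in Dobermans, at 679, 920.4 and 779 in Dobermans against 442, 499.9 and 500.1 in controls (log2 change 0.69 ± 0.18, SE, adjusted p = 0.0181, K alone 0.49), and SLC39A6 (ZIP6) was lower in Dobermans than in Boxers, at 267, 105 and 86.1 in Dobermans against 307, 329, 246 and 284 in Boxers with K among the Boxers (log2 change -1.01 ± 0.31, SE, adjusted p = 0.0257, K alone -0.12). SLC11A1, a metal carrier of macrophage phagosomes, had 349.7, 381 and 508 in Dobermans and 141, 211 and 246 in controls and did not pass (log2 change 1.01 ± 0.38, SE, adjusted p = 0.0657).

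Nucleoside and nucleotide sugar carriers (SLC28, SLC29 and SLC35) had 9 of 10 genes tested, the highest share of any family. In Dobermans 2 rose against controls, in Boxers and paced mongrels 0 passed, and in Dobermans against Boxers 2 were higher and 2 lower. Median changes were -0.21 in Dobermans and -0.11 in paced mongrels, and both stayed negative under the other scalings. SLC35C1, which carries GDP-fucose into the Golgi, had signals of 537, 1005 and 792 in the Dobermans, 288, 282, 294 and 246 in the Boxers, 225, 207 and 289 in the paced mongrels and 336, 496 and 332 in the control mongrels. All Dobermans lay above all other arrays, and all Boxers and paced mongrels lay below the controls. The log2 change was 0.95 ± 0.25 against controls (adjusted p = 0.019) and 1.39 ± 0.23 against Boxers (adjusted p = 0.00305), with 0.48 and 0.92 for K alone.

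SLC29A1 (ENT1), which takes adenosine into cells, was lower in Dobermans than in Boxers, at 1258, 1434 and 921 in Dobermans against 1808, 1711, 1879.5 and 1452 in Boxers, with no overlap (log2 change -0.52 ± 0.18, SE, adjusted p = 0.0411, K alone -0.43). Against controls, at 1779, 1819.7 and 1477, every Doberman was lower as well, but the change did not pass (log2 change -0.50 ± 0.19, SE, adjusted p = 0.0695). SLC35A1, the carrier of CMP-sialic acid, was also lower in Dobermans than in Boxers, at 1174, 939.6 and 1195 in Dobermans against 1509.5, 1683, 1803 and 1559.8 in Boxers (log2 change -0.57 ± 0.17, SE, adjusted p = 0.0246, K alone -0.47). A second probe set of SLC35A1 fell in Dobermans against controls (-1.13 ± 0.31, adjusted p = 0.0212). SLC35A2, the carrier of UDP-galactose, rose in Dobermans, at 260.1, 455 and 391 in Dobermans against 172, 186 and 233 in controls (log2 change 0.83 ± 0.26, SE, adjusted p = 0.0339, K alone 0.38).

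The remaining families held 20 genes, of which 14 were tested. In Dobermans 1 rose and 1 fell, in Boxers 0 passed, in paced mongrels 2 rose, and in Dobermans against Boxers 1 was higher and 3 lower. SLC18A2 (VMAT2), which loads monoamines into vesicles, had signals of 545, 207 and 362 in the Dobermans, 711, 594, 617 and 713 in the Boxers, 741, 805 and 699 in the paced mongrels and 598, 632 and 729.7 in the control mongrels. Every Doberman lay below every other array. It fell against controls (log2 change -0.88 ± 0.27, SE, adjusted p = 0.0318, K alone -0.25) and was lower than in Boxers (log2 change -0.90 ± 0.25, SE, adjusted p = 0.0172, K alone -0.26). SLC66A2 rose in Dobermans, at 171, 407 and 448 in Dobermans against 183, 133 and 91.1 in controls, with K below control P1 (log2 change 1.18 ± 0.37, SE, adjusted p = 0.0348, K alone 0.35).

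SLC18B1, a vesicular carrier of polyamines, and SLC33A1, the acetyl-CoA carrier of the endoplasmic reticulum, separated the Doberman arrays from the Boxer arrays. SLC18B1 had 692, 704 and 882 in the Dobermans, 1660.2, 1224, 1354 and 1371 in the Boxers, 1124, 945 and 772 in the paced mongrels and 1162, 945 and 819.9 in the control mongrels, with every Boxer above every other array. Dobermans were lower than Boxers (log2 change -0.87 ± 0.19, SE, adjusted p = 0.00706), and K alone gave -0.99; in Boxers against controls the change was 0.52 ± 0.19 and did not pass (adjusted p = 0.555). SLC33A1 had 674, 536 and 544 in the Dobermans, 964, 1136, 907 and 999 in the Boxers, 834, 842 and 703 in the paced mongrels and 692, 729 and 826 in the control mongrels, the Boxers again highest and the Dobermans lowest (log2 change -0.76 ± 0.16, SE, adjusted p = 0.00666, K alone -0.55). SLC44A1, a choline carrier, was higher in Dobermans than in Boxers, at 245, 740.3 and 491 in Dobermans against 220, 209.7, 239 and 88.7 in Boxers, with Boxer 4 the lowest of all (log2 change 1.26 ± 0.36, SE, adjusted p = 0.0199, K alone 0.43).

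In paced mongrels SLC34A1 and SLC23A2 rose. SLC34A1, a sodium/phosphate cotransporter known from kidney, had signals of 108, 202 and 80.5 in the Dobermans, 96.5, 63.7, 66.6 and 52.1 in the Boxers, 359, 223 and 283 in the paced mongrels and 104, 84.5 and 59.3 in the control mongrels, with all paced arrays above all others. Its log2 change was 1.63 ± 0.35 (adjusted p = 0.0104), and a second probe set of the gene had -0.12. SLC23A2, a sodium-coupled carrier of vitamin C, had 349.9, 286 and 408 in the Dobermans, 398, 399.9, 418 and 415 in the Boxers, 577, 591 and 655 in the paced mongrels and 340.3, 372 and 269.9 in the control mongrels, again with the paced arrays highest (log2 change 0.87 ± 0.19, SE, adjusted p = 0.012), while its other tested probe sets gave 0.33 and -0.43 and did not pass. SLC20A1 (PiT1), the phosphate carrier found in most cells, had 580, 479.7 and 396 in paced mongrels and 676, 516 and 686 in controls, and every Boxer, at 907, 822, 972 and 1010.3, lay above the controls without passing (log2 change 0.56 ± 0.22, SE, adjusted p = 0.579).

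Several genes had more than 1 tested probe set, 23 of the 85, and these allow a check within the array. All tested probe sets of a gene had the same sign in 13 of the 23 genes for Dobermans against controls, 16 for Boxers, 12 for paced mongrels and 18 for Dobermans against Boxers. No gene had probe sets that passed in opposite directions. Of the genes that passed and had several, 3 of 6 in Dobermans, 0 of 2 in paced mongrels and 6 of 7 in Dobermans against Boxers had 1 sign throughout. The rest had a tested probe set of the opposite sign in that comparison. The direction given above for those genes rests on the probe set chosen.

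Proteins that work with these carriers were listed separately: the sodium pump, chaperones of the SLC16 carriers, the mitochondrial pyruvate carrier and channels, and genes of glucose uptake, pH control, anchoring and fuel gene regulation. Of 32 such genes 21 were on the array and 18 were tested. In Dobermans 0 rose and 5 fell, in Boxers 0 passed, in paced mongrels 1 rose, and in Dobermans against Boxers 0 were higher and 5 lower. Of all tested genes, 11.9% rose and 14.1% fell in Dobermans, and 5.19% rose in paced mongrels. Against Boxers 16.8% were higher and 17.4% lower in Dobermans. MPC1, a subunit of the mitochondrial pyruvate carrier, had signals of 7573, 3499 and 2944 in the Dobermans, 10549.9, 10137, 11864 and 13477 in the Boxers, 10222, 13708 and 11737 in the paced mongrels and 12362, 11830.2 and 12331 in the control mongrels, with Dobermans L and R the lowest. It fell in Dobermans (log2 change -1.51 ± 0.28, SE, adjusted p = 0.00675, K alone -0.68), as did its partner MPC2 (log2 change -1.19 ± 0.33, SE, adjusted p = 0.0232, K alone -0.41) and VDAC2, a channel of the outer mitochondrial membrane (log2 change -0.89 ± 0.21, SE, adjusted p = 0.0147, K alone -0.37). RAB10, a small GTPase that brings glucose carriers to the surface, fell as well (log2 change -0.85 ± 0.27, SE, adjusted p = 0.0353, K alone -0.08), and so did PPARGC1A, a coactivator of mitochondrial genes (log2 change -0.59 ± 0.20, SE, adjusted p = 0.041, K alone -0.39). In paced mongrels TBC1D1, which restrains glucose carrier traffic, rose (log2 change 1.02 ± 0.28, SE, adjusted p = 0.0326). Against Boxers the 5 genes lower in Dobermans were MPC1, MPC2, VDAC2, RAB10 and ATP1B1, a subunit of the sodium pump. For ATP1B1 the log2 change was -0.88 ± 0.30 (SE, limma adjusted p = 0.0358, K alone 0.06). These 5 genes had mean signals over 1000, and PPARGC1A lay below that. Of all tested genes with mean signals over 1000, 22.8% fell in Dobermans against controls and 28.2% were lower than in Boxers.

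Markers of cell types were examined beside these counts. Of 12 cardiomyocyte markers 11 were on the array and tested, and their summed signal was 250813 to 493978 in Dobermans, 235169 to 264613 in Boxers, 203491 to 227865 in paced mongrels and 230763 to 335470 in controls. Against controls 0 of them rose and 1 fell in Dobermans, and against Boxers 5 were higher and 1 lower in Dobermans. The 5 were MYH7, MYL2, TNNI3, TNNC1 and MB. With K alone their log2 changes against Boxers were 0.05, 0.15, -0.01, 0.11 and 0.05. RYR2 was the lower one in both comparisons (K alone -0.77 against controls and -0.55 against Boxers). Of all tested genes, 11.9% rose and 14.1% fell in Dobermans against controls. Against Boxers 16.8% were higher and 17.4% lower. Endothelial markers (3 of 6 on the array) summed to 3884 to 11342 in Dobermans, 4633 to 6879 in Boxers, 4557 to 5982 in paced mongrels and 5162 to 6898 in controls. Fibroblast markers (5 of 7) summed to 18628 to 27153 in Dobermans, 17025 to 26738 in Boxers, 13038 to 15786 in paced mongrels and 12506 to 20339 in controls. Smooth muscle and pericyte markers (4 of 6) summed to 14453 to 23444 in Dobermans, 15690 to 21084 in Boxers, 7509 to 12529 in paced mongrels and 9105 to 19052 in controls. Lymphocyte markers (4 of 5) summed to 802 to 1539.6 in Dobermans, 333 to 645 in Boxers, 924 to 1212 in paced mongrels and 452 to 697 in controls. MCAM, of the smooth muscle and pericyte list, rose in Dobermans (limma log2 change 1.19 ± 0.28, adjusted p = 0.0135, K alone 0.80). It fell in paced mongrels (-1.92 ± 0.28, adjusted p = 0.00182). ACTA2, MYH11 and TAGLN of that list did not pass. Endothelial TEK fell in paced mongrels (limma log2 change -1.12 ± 0.22, adjusted p = 0.00644), while PECAM1 and VWF did not pass. Fibroblast DCN rose in Dobermans (limma log2 change 0.67 ± 0.21, adjusted p = 0.0368, K alone 0.26), while COL1A1, COL1A2, COL3A1 and FBLN1 did not pass. With K alone the log2 changes of these others against controls were 1.75, 0.39, 0.99 and 1.18, in that order. The lymphocyte list was divided in paced mongrels. CD3E rose in Dobermans (1.29 ± 0.30, limma adjusted p = 0.0133, K alone 0.82) and fell in paced mongrels (-2.89 ± 0.30, adjusted p = 0.000267). By contrast, NKG7 rose in paced mongrels (2.37 ± 0.39, adjusted p = 0.00309) and did not pass in Dobermans (-0.42 ± 0.39, adjusted p = 0.416). IL2RG lay above the controls on every paced array without passing (1.67 ± 0.53, adjusted p = 0.0545), and CD8A, not tested because of low signal, had 100.1, 149 and 74.7 in paced mongrels against 7.9, 17.9 and 46.1 in controls. Adipocyte markers (2 of 5) and atrial markers (3 of 4) held no gene that passed, and red cell markers were not analysed here. The part of the cell makeup in the SLC results was not tested.

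Array by array, the 85 SLC genes had a median log2 difference from the control mean of 0.07 on array K, 0.61 on array L and 0.49 on array R of the Dobermans. In the paced mongrels it was 0.04 to 0.16 and in the Boxers -0.04 to 0.10. Across the 85 genes, the correlation with the control mean was 0.956 for K, 0.712 for L and 0.815 for R, against 0.887 to 0.893 for the paced arrays and 0.956 to 0.975 for the Boxers; the points are genes of 1 array and not replicates. K thus lay with the Boxers on this measure and L and R lay beyond the paced arrays. With L and R left out, 0 of the 20 Doberman calls against controls and 0 of the 28 against Boxers remained, in a fit that takes the spread of the lone Doberman from the other groups. In that fit 19 of the 20 and 28 of the 28 kept their sign, SLC38A1 being the exception.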

How the data were processed

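The deposited values are MAS5 signal intensities per probe set on a linear scale, 1 column for each of 13 arrays; MAS5 is named in the submitters' processing notes, and its version is not given in the sources used here. The authors scaled each array to a common level, since the 2% trimmed mean of every column lies near 500.1, as checked on the file. Signals ran from 0 to 95340. The 77 control probe sets were set aside, which left 23836.

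The analysis used log2(signal + 16). A filter removed the probe sets whose mean fell below the 40th percentile, at 6.95 in log2 or 108 in signal, so that 14302 were tested. Fold changes are on this scale and understate changes of low genes. A model with 1 mean per group over all 13 arrays was fitted in limma 3.58.1 (R 4.3.3; 9 residual degrees of freedom, intensity trend), so that groups share 1 estimate of the spread, and p-values were adjusted by Benjamini-Hochberg over the 14302 probe sets, comparison by comparison. The steps were tested on simulated data in which every group had the same spread. That simulation cannot show how the wider spread of the Doberman arrays acts on the calls. "Passed", "rose" and "fell" mean an adjusted p under 0.05, and SE is that of the moderated fit. The background counts each gene once, by its probe set of highest mean signal.

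Gene names come from the array annotation (10549 probe sets with 1 symbol, 138 with several, 13149 with none); of the 123 SLC genes 120 were found in the reference by gene ID, and 0 symbols changed. The members, family lists, partner genes, cell type markers, comparisons and alternatives were chosen with earlier results of these data known. Named genes were up to 8 of the largest passing rises and falls per comparison (or the 3 genes of smallest p, if a direction had fewer than 3), 20 known carriers on the array whatever their result, and partner genes that passed; other genes were named after their values were seen, to complete a family. The alternatives were leaving out each array, leaving out Dobermans L and R, median centring, quantile normalization, a pseudocount of 1 or of 64, a filter at the 70th percentile or none, a fit of the compared groups alone, array weights, a covariate for the GAPDH ratio, and other choices of probe set.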

Additional observations from a re-analysis of the deposited data

Results flagged for a closer look

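Among 46 named genes, 3 had a Boxer far from the other 3, by a gap over Dixon's 95% critical share of the group's range; chance gives such a gap in about 1 in 20 groups. The gap was 0.924 of the range for SLC12A8, where Boxer 2 was low, 0.846 for the glutamate carrier SLC1A2 and 0.864 for the choline carrier SLC44A1, where Boxer 4 was low in both.

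For 21 named genes the difference between Dobermans and Boxers passed in their direct comparison. That difference is also the difference of their changes against the shared controls, and breed and disease cannot be told apart in it. In log2, Dobermans were higher for SLC22A10 by 1.696, SLC35C1 by 1.395, SLC2A8 by 1.393, SLC16A4 by 1.289, SLC44A1 by 1.257, SLC4A4 by 1.173 and SLC2A9 by 1.158. They were also higher for SLC38A3 by 1.089, SLC9A3R2 by 1.071, SLC10A1 by 1.012, SLC9A8 by 0.7772 and SLC5A10 by 0.7549. Dobermans were lower for the glutamine carrier SLC38A1 (-2.276), the zinc importer SLC39A6 (-1.013), SLC18A2 (-0.8958), SLC18B1 (-0.871), SLC25A40 (-0.8473), SLC2A1 (-0.7916), SLC33A1 (-0.7636), SLC35A1 (-0.5692) and the adenosine carrier SLC29A1 (-0.519). None of the 21 passed without Dobermans L and R.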

How the results depend on the processing

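The 20 SLC genes that passed in Dobermans against controls became 0 without Dobermans L and R, 0 with the GAPDH ratio as a covariate (which goes largely with these arrays), 0 in a fit of the compared groups alone, 10 after quantile normalization and 7 with the filter at the 70th percentile, where 45 genes were tested. Leaving out 1 array gave 2 (without L) to 53 (without K), with 6 without R, 5 without control P1, 8 without P4 and 10 without P9. The 28 of Dobermans against Boxers became 0 without L and R, 0 with the GAPDH covariate, 12 in the fit alone and 13 with the stricter filter; single arrays gave 10 (without L) to 58 (without K), with 16 without R. The 10 of paced mongrels became 26 after median centring, 21 with no filter, 2 with the stricter filter, 24 in the fit alone, 28 with array weights and 18 with the GAPDH covariate. Leaving out 1 array there gave 5 to 8, with 5 for control P1 and for each of LV01, LV02 and LV04. In Boxers the count was 0 under every alternative run. Pseudocounts and the choice of probe set kept each count within 1.5 times. One passing gene turned, SLC38A1 in Dobermans without L and R (log2 change 0.16). Of the named genes that passed, 0 of 15 in Dobermans and 0 of 21 in Dobermans against Boxers passed under all alternatives. In paced mongrels 3 of 10 (SLC12A8, SLC9A8 and SLC9A9) passed under all alternatives that tested them. The stricter filter left these 3 genes out. SLC25A40 and SLC40A1 in Dobermans were lost in no fit that left out 1 array. The causes were not tested. No paired analysis was possible because the groups share no replicate numbers.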
